A study of Mus musculus with 6 samples.

Results

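The genes that copy the genome before a cell divides were examined in mouse small intestine, in 3 libraries labelled control and 3 labelled model. The set holds 45 genes listed by symbol, from origin licensing to nucleotide supply. All 45 were found among the 33017 genes of the deposited count table, and 44 of them passed the filter on low counts. The series title names simulated microgravity and radiation as the cause of an intestinal immune disorder, and its design text describes a comparison of 2 groups for the effect of both factors together. The labels give the tissue, the group and a replicate number. Strain, age, sex, dose, duration and the part of the intestine are not stated in the labels used here, and no library is labelled as given the compound in the title. Nor do they say that libraries of a group came from separate animals, so a p-value here reflects only how these libraries vary, which may be technical.

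DNA replication is prepared in the G1 phase, when the origin recognition complex, Cdc6 and Cdt1 load rings of Mcm2 to Mcm7 onto DNA. In S phase, Cdc45 and the GINS complex turn each ring into a moving helicase, polymerases alpha, delta and epsilon copy the strands, and the sliding clamp PCNA holds the polymerases in place. In the small intestine these genes are used above all by the dividing cells at the base of the crypts, while the cells of the villi no longer divide.

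Levels are given as CPM, read counts relative to a TMM-scaled library total, and differences as log2 fold changes, model over control, each with a standard error (SE). The library totals lay between 35007515 and 45285564 counts, and the 45 genes together took between 0.0935% (model 1) and 0.148% (control 3) of them. All 6 markers of intestinal epithelium, Vil1, Cdx1, Cdx2, Krt20, Epcam and Cdh17, were well above 0 in every library, with sums of 6853 to 7303 CPM in the controls and 6612 to 8056 CPM in the model libraries. Some libraries stood apart from the rest. Control 3 had 1814 CPM of ileal markers (at most 4.74 CPM elsewhere) and 11.8 CPM of proximal markers (580 to 753 CPM elsewhere), and model 3 had 5483 CPM of pancreatic acinar markers (at most 26.4 CPM elsewhere). Markers of follicle and germinal centre B cells, which also divide, had sums of 336 CPM in control 3 and 213 CPM in model 3, while the 4 remaining libraries had 22.0 to 51.9 CPM. Markers of Paneth cells, which sit at the crypt base, had sums of 49.3 CPM in model 1 and 13.3 CPM in control 2, and of 499 to 4122 CPM in the 4 remaining libraries. All 6 smooth muscle markers had a log2 fold change below 0, with a median of -0.73. Their sums were 1138, 1728 and 1946 CPM in control 1, 2 and 3. In model 1, 2 and 3 they were 1138, 854.5 and 863 CPM, so model 1 was level with control 1.

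None of the replication genes differed between the groups at the threshold. The group difference was small for most genes, and 1 library, model 1, often held the extreme value: the lowest for 26 genes and the highest for 11 others. Of the 44 tested genes 29 had a log2 fold change below 0 (65.9%), beside 51.8% of all 15904 tested genes. The median over the replication genes was -0.18, beside -0.018 over all tested genes. Single values ranged from -0.64 for Ccne2 to 0.55 for Rrm2. In bulk tissue, fewer dividing cells and less of each transcript per cell cannot be told apart.

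EdgeR's quasi-likelihood test called 0 of the 44 genes at an adjusted p under 0.05, as it did 0% of all tested genes, with a smallest adjusted p of 0.851 in the set. At an unadjusted p under 0.05 it gave 1 of the 44 genes, Rrm2, which was higher, beside 4.81% of all tested genes (1.82% higher and 2.99% lower). DESeq2 called 0 members, beside 0.13% of all genes it tested, and limma-voom called 0, beside 0%. The 3 model values all lay above or all below the 3 control values for 5 genes: Rrm2 and Cdt1 above, and Cdc45, Uhrf1 and E2f1 below. This share is near that of all tested genes, of which 11.1% did not overlap between the groups (4.73% higher and 6.33% lower). E2f1 overlapped with RLE scaling, and Cdt1 with scaling by library totals alone. With model 1 left out, the median was -0.048 and 31 genes were below 0. With upper-quartile scaling, 35 genes were below 0, beside 59.8% of all tested genes. With libraries scaled by their total alone, the median was -0.35 and 41 genes were below 0, while the median of all tested genes was then -0.21 and 72% of them were below 0.

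**Figure D1:**
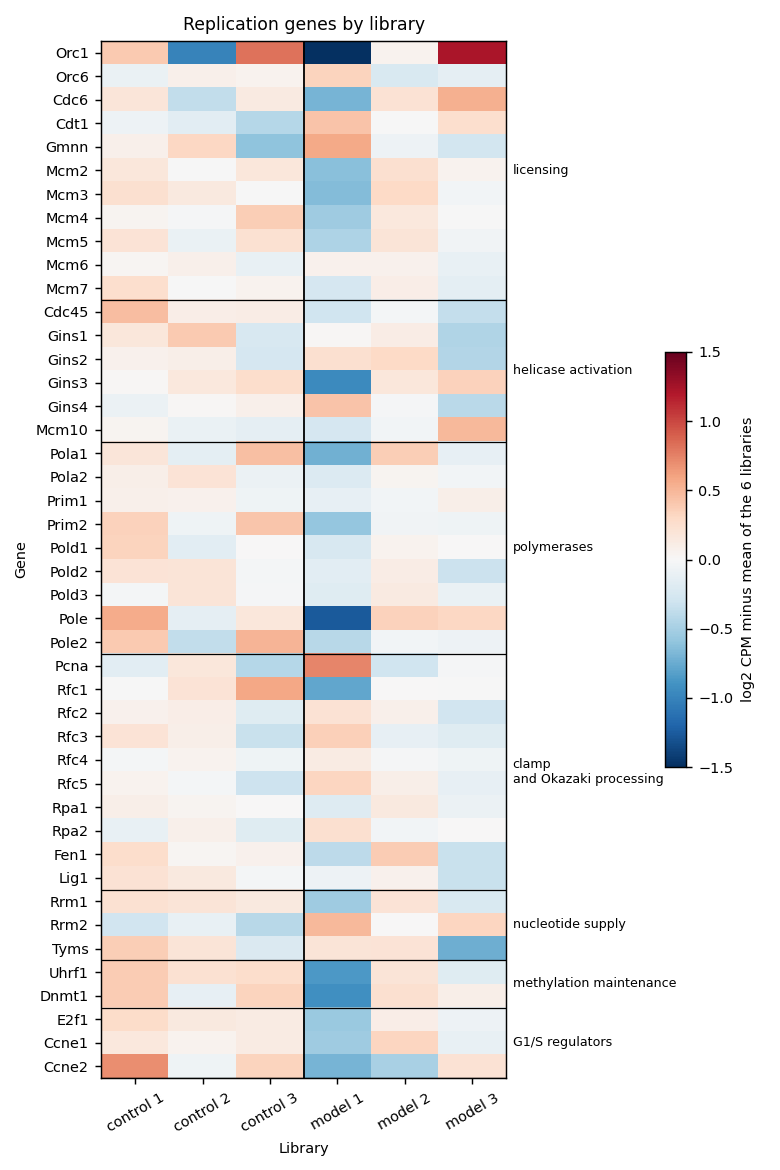
Heat map of the 44 tested replication genes (rows, by role) in the 6 libraries (columns). Colour is the log2 CPM of a gene in a library minus its mean over the 6 libraries. Model 1 holds most of the strong blue cells (Pole at -1.26, Gins3 at -0.96, Dnmt1 at -0.92) and also red ones (Pcna at 0.73, Gmnn at 0.57, Rrm2 at 0.49).

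Origin licensing was represented by 11 genes, of which 6 had a log2 fold change below 0, with a median of -0.0063. The 6 subunits of the MCM ring form the core of the replicative helicase. Mcm2 measured 44.9, 39.9 and 44.8 CPM in control 1, 2 and 3, against 25.9, 47.2 and 41.3 CPM in model 1, 2 and 3. Mcm3 measured 48.0, 44.9 and 40.4 CPM in the controls, against 25.8, 50.01 and 39.6 CPM in the model libraries. For both genes model 1 was the lowest and model 2 the highest of the 6 libraries, so the groups overlapped. Mcm4 measured 36.5, 35.0 and 45.8 CPM in the controls, against 24.6, 39.5 and 35.3 CPM in the model libraries. Mcm5 measured 57.0, 46.4 and 58.0 CPM in the controls, against 35.9, 56.5 and 47.8 CPM in the model libraries. Again only model 1 lay below the whole control range. Mcm7 measured 58.6, 49.3 and 51.3 CPM in the controls, against 41.5, 52.9 and 44.5 CPM in the model libraries. Here model 1 and model 3 lay below all controls and model 2 among them. Log2 fold changes of these 5 subunits were between -0.24 (Mcm4, SE 0.24) and -0.18 (Mcm2, SE 0.25), and without model 1 those of Mcm2 and Mcm3 were 0.036 and 0.012.

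Mcm6 had nearly the same level in both groups. It measured 86.6, 89.9 and 78.9 CPM in the controls, against 88.7, 88.6 and 78.5 CPM in the model libraries, a log2 fold change of 0.0025 (SE 0.17). Model 1, the library in which the other 5 subunits had their lowest values, was for Mcm6 inside the control range. The standard deviation of its log2 CPM over the 6 libraries was 0.089, against 0.18 for Mcm7 and 0.35 for Mcm3. This contrast with Mcm7 was not kept when each library's trend with transcript length was removed, as described below. Mcm6 then ran from -0.24 (control 3) to 0.25 (model 1) around its mean over the 6 libraries. Mcm7 ran from -0.26 (model 1) to 0.25 (control 1). Levels of different genes can be compared only per length. Divided by the longest annotated transcript, control means were 19.5 ± 1.30 CPM per kb (SD, n = 3) for Mcm6, 17.9 ± 1.65 for Mcm7, 15.9 ± 1.90 for Mcm5, 12.9 ± 1.11 for Mcm3, 12.4 ± 0.823 for Mcm2 and 10.9 ± 1.62 for Mcm4. The control libraries of each subunit overlapped those of its neighbours in this order, and the order changed when the median transcript length was used instead.

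Transcription of many replication genes is driven by E2F factors, so the promoters of the set were searched for the E2F letters TTTCGCGC, TTTGGCGC and TTTCCCGC on both strands, counting overlapping matches. RefSeq promoter windows of 300 bases (250 before the start site and 50 after, build GRCm38.p6, matched by symbol) were at hand for 36 of the 45 genes. A match was found in 16 of them (44.4%), beside 2.12% of the 27025 genes with a window, 3.54% of the tested genes and 1.84% of all 32851 windows. As a contrast, letters of the cell cycle element of late genes, TTTGAA or TTCGAA, were in 22.2% of the replication genes, beside 21.7% of all genes with a window, and in 13 of 17 mitosis genes. Shown here are the windows of Mcm5 and Mcm6, partners in 1 complex with different values in model 1, and of Cdt1 and Uhrf1, whose groups did not overlap in opposite directions. Capitals mark the E2F letters, and each sequence runs 5′ to 3′ on the strand of its gene:
Mcm5, chr8:75109259-75109558, plus strand: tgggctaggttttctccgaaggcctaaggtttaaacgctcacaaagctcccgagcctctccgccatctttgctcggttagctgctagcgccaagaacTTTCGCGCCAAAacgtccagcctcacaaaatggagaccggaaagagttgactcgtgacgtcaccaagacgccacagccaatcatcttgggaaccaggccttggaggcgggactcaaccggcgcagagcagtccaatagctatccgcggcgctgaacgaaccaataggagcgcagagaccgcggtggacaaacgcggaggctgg
Mcm6, chr1:128359656-128359955, minus strand: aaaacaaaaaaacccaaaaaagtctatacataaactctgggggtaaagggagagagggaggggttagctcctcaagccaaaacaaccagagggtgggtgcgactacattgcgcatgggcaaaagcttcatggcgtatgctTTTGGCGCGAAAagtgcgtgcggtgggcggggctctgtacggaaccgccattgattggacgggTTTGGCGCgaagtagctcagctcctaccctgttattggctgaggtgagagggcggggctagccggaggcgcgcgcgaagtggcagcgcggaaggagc
Cdt1, chr8:122567765-122568064, plus strand: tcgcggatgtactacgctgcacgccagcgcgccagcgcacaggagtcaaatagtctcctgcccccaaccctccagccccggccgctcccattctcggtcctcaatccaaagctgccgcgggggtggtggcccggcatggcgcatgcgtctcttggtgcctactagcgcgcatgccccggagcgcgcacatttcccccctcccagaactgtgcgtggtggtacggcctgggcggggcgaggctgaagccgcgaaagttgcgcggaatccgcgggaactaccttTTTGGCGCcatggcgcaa
Uhrf1, chr17:56304063-56304362, plus strand: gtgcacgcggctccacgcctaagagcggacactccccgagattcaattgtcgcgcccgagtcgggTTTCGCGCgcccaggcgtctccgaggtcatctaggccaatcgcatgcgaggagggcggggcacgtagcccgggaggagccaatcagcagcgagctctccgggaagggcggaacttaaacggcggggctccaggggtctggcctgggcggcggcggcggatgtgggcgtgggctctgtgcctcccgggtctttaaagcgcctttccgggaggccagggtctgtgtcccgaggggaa
The matches of Mcm5, TTTCGCGC and, on the other strand and overlapping it, TTTGGCGC, begin at positions -153 and -149, where the start site is position 1 and the base before it -1. Mcm6 holds 3 matches, beginning at -110, -106 and -47, of which the first pair overlap. The match of Uhrf1 begins at -185 and that of Cdt1 at 33, after the start. Uhrf1 has a further window, chr17:56303087-56303386, which holds 0 matches and is not shown. A gene with more than 1 window was counted as matched if any of them held the letters. By direction, 11 of 16 with a match and 13 of 19 tested genes without one had a log2 fold change below 0, with medians of -0.20 and -0.14. Of the 16 with a match, 12 had their lowest value in model 1 and 2, Cdt1 among them, their highest. Of the 19 without one, 10 had their lowest and 6 their highest value there, and of all tested genes 30.8% were lowest and 28.5% highest in model 1. The letters describe these windows only, and no binding was measured.

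Among the loading factors, Cdt1, which brings the MCM ring to origins, measured 30.8, 29.0 and 24.1 CPM in the controls, against 43.7, 32.3 and 38.5 CPM in the model libraries. All model values lay above all control values, by a small margin between control 1 and model 2. Its log2 fold change came to 0.45 (SE 0.20, adjusted p = 0.851 by edgeR), and it was 0.34 without model 1 and 0.24 with scaling by library totals alone, where the groups overlapped. Geminin (Gmnn), the inhibitor that binds Cdt1, measured 21.9, 25.8 and 13.6 CPM in the controls, against 30.8, 19.8 and 17.2 CPM in the model libraries, so the libraries overlapped. The ratio of Cdt1 to Gmnn was 1.44 ± 0.326 in control and 1.76 ± 0.428 in model tissue (SD), and the libraries overlapped. Cdc6, the ATPase that loads MCM together with Cdt1, measured 11.2, 7.64 and 10.8 CPM in the controls, against 6.06, 11.5 and 14.3 CPM in the model libraries, so that the lowest and the highest value were both in the model group. Orc1 and Orc6 are subunits of the origin recognition complex. Orc6 was at -0.0063 (log2 fold change, SE 0.23), and Orc1, with 4 to 42 counts a library, was at 0.079 (SE 0.85), too imprecise to show a difference at this depth.

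Helicase activation was represented by Cdc45, the 4 GINS genes and Mcm10, which helps to activate the helicase. Cdc45 measured 19.2, 15.0 and 15.0 CPM in the controls, against 11.3, 13.7 and 10.9 CPM in the model libraries. It was below every control value in each model library, with a log2 fold change of -0.45 (SE 0.22, adjusted p = 0.851 by edgeR), and of -0.42 without model 1. Its difference was thus about as large in the libraries model 2 and model 3 alone, and -0.32 without control 1. For the GINS genes, on the log2 scale Gins1 and Gins3 differed by -0.22 (SE 0.29) and -0.20 (SE 0.38), and Gins2 and Gins4 by 0.092 (SE 0.30) and 0.038 (SE 0.26), and all 4 overlapped. In model 1, Gins3 was the lowest of the 6 libraries at 2.53 CPM while Gins4 was the highest at 21.1 CPM. Of the exonic bases annotated for Gins2, 67.3% are shared with Gse1 on the opposite strand, and its value is uncertain since the strand setting of the counting is not given. Mcm10 measured 33.1, 30.1 and 29.4 CPM in the controls, against 27.0, 31.3 and 45.2 CPM in the model libraries, and only model 3 stood out. Its log2 fold change was 0.16 (SE 0.23), and -0.075 without model 3.

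All 9 polymerase genes of the set had a log2 fold change below 0, beside 51.8% of all tested genes, with a median of -0.24. The groups overlapped for each of them. Model 1 was the lowest library for each but Pold2, which was lowest in model 3. Without model 1, Pold3 was at 0.00062. The further subunits Pold4, Pole3 and Pole4, which are not in the set, were above 0. Their log2 fold changes were 0.48 (SE 0.51), 0.36 (SE 0.26) and 0.011 (SE 0.24), and each had its highest value in model 1. Prim2, the large subunit of primase, measured 13.0, 9.78 and 13.6 CPM in the controls, against 6.78, 9.82 and 9.77 CPM in the model libraries (log2 fold change -0.46, SE 0.26). Control 2 shared the level of model 2 and model 3. Pold3, an accessory subunit of polymerase delta, measured 43.3, 50.9 and 43.9 CPM in the controls, against 39.1, 48.7 and 41.6 CPM in the model libraries. The catalytic subunits Pola1, Pold1 and Pole differed on the log2 scale by -0.28 (SE 0.31), -0.13 (SE 0.20) and -0.26 (SE 0.43). Pole, which copies the leading strand, had the widest range of the polymerases, from 6.96 CPM in model 1 to 24.6 CPM in control 1, and at 21.3 and 20.6 CPM model 2 and model 3 lay inside the control range. Prim1, the catalytic subunit of primase, was among the steadiest genes, with a standard deviation of 0.091 on the log2 scale over the 6 libraries.

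The clamp, its loader and the factors that process Okazaki fragments comprised 10 genes, 4 below 0 and 6 above 0, with a median log2 fold change of 0.019. Pcna, the sliding clamp, measured 55.7, 70.2 and 46.1 CPM in the controls, against 103, 50.6 and 61.6 CPM in the model libraries. Only model 1 lay above the controls, and without it the log2 fold change was -0.034 in place of 0.33 (SE 0.31). Cdkn1a, an inhibitor of cyclin-dependent kinases whose product binds PCNA, had its highest value in model 1 (362 CPM), with 272 CPM in model 3, 149 CPM in model 2 and 128 to 205 CPM in control. Rfc1, the large subunit of the clamp loader, measured 37.3, 43.3 and 56.2 CPM in the controls, against 21.8, 37.5 and 37.4 CPM in the model libraries (log2 fold change -0.50, SE 0.28). It was -0.31 without control 3, its highest library, and -0.28 without model 1. Model 2 and model 3 lay just above the lowest control. The 4 small loader subunits Rfc2 to Rfc5 each had their highest value in model 1, and their log2 fold changes were between 0.013 (Rfc2) and 0.20 (Rfc5). Of the single-strand binding subunits, the log2 fold change was -0.086 for Rpa1 (SE 0.18) and 0.14 for Rpa2 (SE 0.20). Lig1, the ligase that joins Okazaki fragments, had one of -0.22 (SE 0.19).

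Fen1, the flap nuclease of Okazaki fragments, had only 22 to 59 counts a library, or 0.762 to 1.34 CPM. Of its annotated exonic bases 84.2% are shared with genes on the opposite strand, Tmem258 among them, and its level was not read as the amount of its transcript. Tk1, the thymidine kinase of S phase, was listed at 0 in all 6 libraries, though only 1.6% of its exonic bases are shared with another gene, so it could not be tested, and the 0 was not read as absence. In all, 15 of the 45 genes share at least 1 exonic base with another annotated gene, and 2 of them, Fen1 and Gins2, share over 50%.

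**Figure D2:**
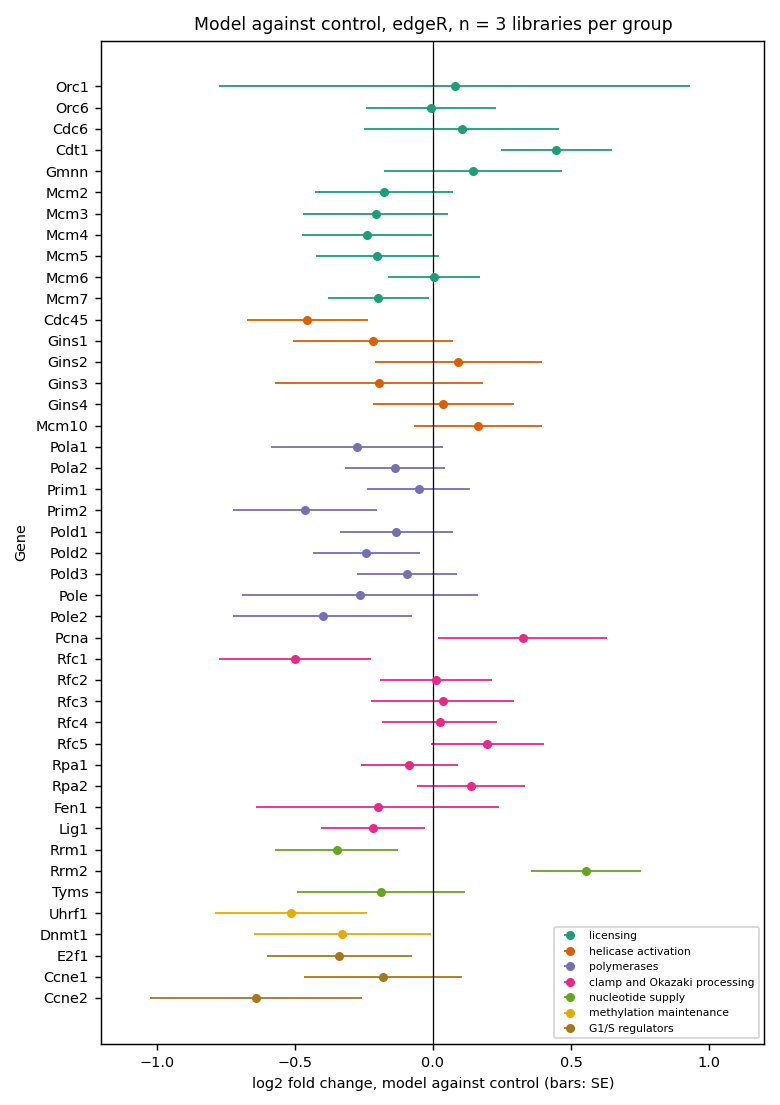
Log2 fold change of model against control for each of the 44 tested replication genes by edgeR (points) with its SE (bars), coloured by role. The 9 polymerase genes of the set all lie left of 0, beside 51.8% of all tested genes. Licensing genes and clamp genes lie on both sides, from -0.50 for Rfc1 to 0.45 for Cdt1.

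Ribonucleotide reductase makes the DNA precursors from a large subunit, Rrm1, and a small subunit, Rrm2, whose level is known to follow S phase. Rrm2 measured 32.7, 36.8 and 29.8 CPM in the controls, against 56.0, 40.2 and 49.7 CPM in the model libraries. Each model library was above each control library, with a log2 fold change of 0.55 (SE 0.20, adjusted p = 0.851 by edgeR), and of 0.44 without model 1. Rrm1 measured 72.0, 70.1 and 68.2 CPM in the controls, against 42.3, 70.6 and 52.4 CPM in the model libraries (log2 fold change -0.35, SE 0.22), with -0.19 without model 1 and -0.56 without model 2. Model 1 and model 3 lay below the narrow control range and model 2 inside it. The ratio of Rrm2 to Rrm1 in CPM was 0.454, 0.525 and 0.437 in control and 1.32, 0.569 and 0.948 in model tissue. No scale factor of a library can alter this ratio, but a trend with transcript length can. The longest transcript has 5.48 kb for Rrm1 and 2.19 kb for Rrm2. With each library's trend with length removed, as described below, log2 fold changes were 0.50 for Rrm2 and -0.23 for Rrm1. The ratio was chosen after its values were seen, as were 3 further ratios. A two-sided exact permutation test gave p = 0.1, the smallest that 3 against 3 libraries allow, and p = 0.4 after Benjamini-Hochberg adjustment over the 4 ratios. As the groups were already seen to be apart, this p follows from the choice and no conclusion is drawn from it. The 3 further ratios, Cdt1 to Gmnn, Pcna to Rfc1 and Cdt1 to Cdc6, overlapped between the groups. Tyms, which makes thymidylate, had its lowest level in model 3 (12.4 CPM), with 17.7 to 26.8 CPM in the 5 remaining libraries.

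Maintenance of DNA methylation at the fork was represented by Dnmt1, the methyltransferase, and Uhrf1, which recruits it to newly copied DNA. Uhrf1 measured 56.4, 50.7 and 51.9 CPM in the controls, against 23.8, 49.4 and 38.1 CPM in the model libraries. All model values lay below all control values, with model 2 close to them, and the log2 fold change was -0.51 (SE 0.28, adjusted p = 0.851 by edgeR) and -0.28 without model 1. Dnmt1 measured 108, 76.6 and 105 CPM in the controls, against 44.0, 98.5 and 88.6 CPM in the model libraries. Model 1 was again the lowest, and model 2 and model 3 lay inside the control range. The log2 fold change was -0.33 (SE 0.32), and -0.048 without model 1.

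The regulators of entry into S phase were E2f1, a transcription factor of replication genes, and the cyclins Ccne1 and Ccne2, which activate Cdk2. E2f1 measured 8.84, 8.07 and 7.96 CPM in the controls, against 4.95, 7.80 and 6.90 CPM in the model libraries. Model values were all below control values, with a log2 fold change of -0.34 (SE 0.26, adjusted p = 0.851 by edgeR), and of -0.17 without model 1. Ccne1 measured 7.95, 7.43 and 7.79 CPM in the controls, against 4.92, 8.91 and 6.58 CPM in the model libraries, with the lowest and the highest value both in the model group. Ccne2 measured 5.03, 2.94 and 3.90 CPM in the controls, against 1.87, 2.18 and 3.56 CPM in the model libraries. It had the lowest log2 fold change of the set, -0.64 (SE 0.38), but model 3 lay above control 2. The value was -0.42 without control 1 and -0.96 without model 3.

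**Figure D3:**
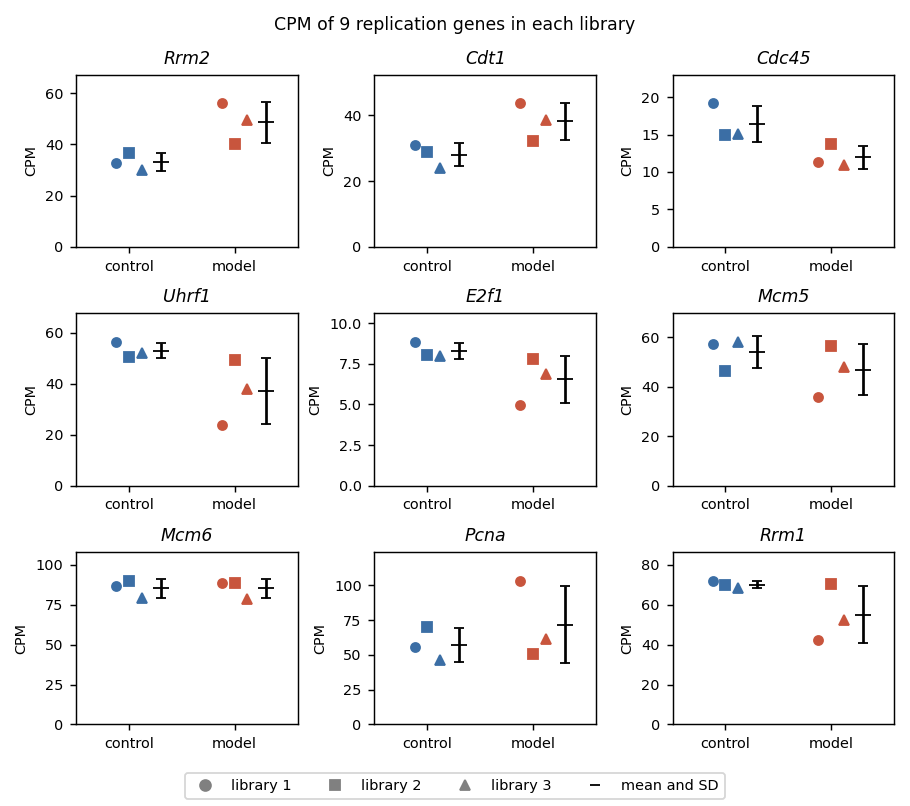
CPM of 9 replication genes in each library (coloured symbols, the shape gives the replicate number, which was not used to pair libraries) with mean and SD of the 3 libraries of a group (black). Axes start at 0. Rrm2 and Cdt1 are above, and Cdc45, Uhrf1 and E2f1 below, all controls in each model library, while Mcm6 keeps to 78.5 to 89.9 CPM and Pcna reaches 103 CPM in model 1 only.

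The values in model 1 varied with transcript length. The 26 genes with their lowest value in model 1 had a median longest transcript of 3.41 kb, and the 11 with their highest value there one of 1.81 kb. The 15 longest genes of the set (3.59 to 7.16 kb) had a median deviation of -0.53 in model 1, and the 15 shortest (1.09 to 2.52 kb) one of 0.012. Across the 44 genes, which are not independent replicates, the deviation in model 1 had a correlation with log2 length of r = -0.49, and across the 15367 tested genes with a known length it was -0.32. In the other libraries r over the 44 genes was 0.30 in control 1, -0.22 in control 2, 0.30 in control 3, 0.44 in model 2 and 0.23 in model 3, while over all genes it was between -0.0099 (model 2) and 0.18 (control 3). With the trend of each library with length removed, the median deviation of the replication genes in model 1 was -0.26, against -0.25 before. Some genes moved closer to 0, as Pole did from -1.26 to -0.79 and Pcna from 0.73 to 0.42. Others moved away from 0, as Mcm6 did from 0.060 to 0.25, Gins1 from 0.012 to -0.405 and Pold2 from -0.16 to -0.44. Without the trend, 5 genes had groups that did not overlap, beside 12.2% of all genes so treated, and they were the 5 named above: Rrm2 and Cdt1 higher, and Cdc45, Uhrf1 and E2f1 lower. None passed, with a smallest adjusted p of 0.786 by limma in the set.

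**Figure D4:**
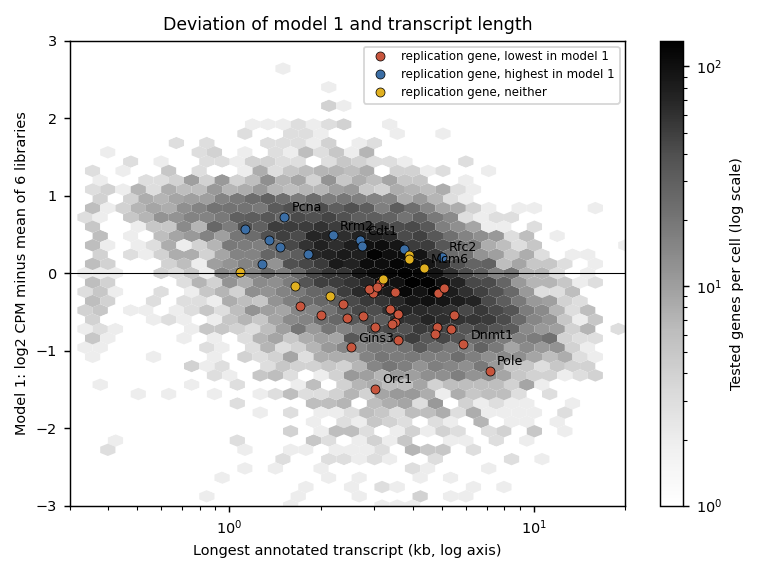
Deviation of model 1 from the mean of the 6 libraries (log2 CPM) against the longest annotated transcript (kb, log axis). Grey cells count tested genes on a log scale (genes beyond the axes are not drawn) and coloured points are replication genes. Pcna (1.52 kb) lies highest and Dnmt1 (5.87 kb) and Pole (7.16 kb) far below 0, but short genes such as Gins3 (2.52 kb, -0.96) also lie below 0 and long ones such as Tyms (3.88 kb, 0.19) above it.

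Other genes of cell division gave the setting. Of 38 further replication genes 25 had a log2 fold change below 0, with a median of -0.12, and 0 passed edgeR's test in either direction, with 0 also at an unadjusted p under 0.05. Those with the highest mean CPM were Mcmbp, an MCM binding protein, at 75.5 ± 4.92 CPM in the controls against 83.2 ± 5.24 CPM in the model libraries (SD, n = 3), and Topbp1, a checkpoint and initiation factor, at 68.5 ± 4.59 against 61.2 ± 13.0 CPM. Of 17 tested genes that control entry into S phase, 13 were below 0, with a median of -0.38, and 0 passed, those with the highest mean CPM being Cdkn1a and the D-type cyclin gene Ccnd2 (log2 fold change -0.58, SE 0.43). Of 19 mitosis genes 18 were below 0, with a median of -0.24, and 0 passed. Mki67, the marker of cycling cells, measured 252, 213 and 270 CPM in the controls, against 122, 255 and 213 CPM in the model libraries. Top2a, the topoisomerase of dividing cells, measured 226, 201 and 229 CPM in the controls, against 103, 213 and 153 CPM in the model libraries, so that model 1 was lowest for both, as for most replication genes.

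By library, the median deviation of the replication genes was 0.17, 0.063 and 0.033 in control 1, 2 and 3 and -0.25, 0.084 and -0.078 in model 1, 2 and 3. Model 1 was lowest and model 2 lay among the controls. Mitosis genes were also lowest in model 1, and highest in model 2, with -0.52 in model 1, 0.21 in model 2 and -0.16 in model 3. Of the mitosis genes 63.2% had their lowest value in model 1, of the replication genes 59.1%, and of all tested genes 30.8%. Markers of villus enterocytes had sums of 20780, 18870 and 13070 CPM in control 1, 2 and 3. In model 1, 2 and 3 the sums were 33700, 17700 and 24450 CPM. Model 1, lowest in replication genes, was thus highest in the summed level of the 8 villus markers above 0. In model 1 Apoa1 alone gave 13700 CPM of this sum. Alpi, Fabp1, Apoa1 and Apoa4 had their highest value in model 1. Lct was highest in control 1, Sis and Slc5a1 in model 3, and Anpep was lowest in model 1 (1973 CPM). Control 3, the library with ileal markers, had 0.926 CPM of Fabp1 and 0.997 CPM of Lct, but the highest Anpep (8570 CPM). Fabp2, the ninth, was listed at 0 in all libraries. The 8 markers of crypt stem cells, all above 0 in each library, had a median deviation of -0.28 in model 1, the lowest of the 6 libraries, and a median log2 fold change of -0.26. Axin2 was at 17.9 CPM in model 1 and 40.5 to 96.2 CPM elsewhere, Sox9 at 12.3 against 19.1 to 27.8 CPM, and Slc12a2 at 178 against 239 to 323 CPM. Ascl2 went the other way, at 7.89 CPM in model 1 against 2.74 to 5.05 CPM elsewhere. Lgr5, Olfm4, Smoc2 and Rnf43 were in model 1 inside the range of the other libraries. The summed level of the 8 markers, most of it from Olfm4, was 1035 to 1300 CPM in the controls and 1032 to 1246 CPM in the model libraries. The part of tissue composition in the replication values was not tested. Control 3, with ileal markers, and model 3, with pancreatic ones, had medians of 0.033 and -0.078 in the replication genes, and with both left out the median log2 fold change was -0.16 with 32 of 44 genes below 0.

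**Figure D5:**
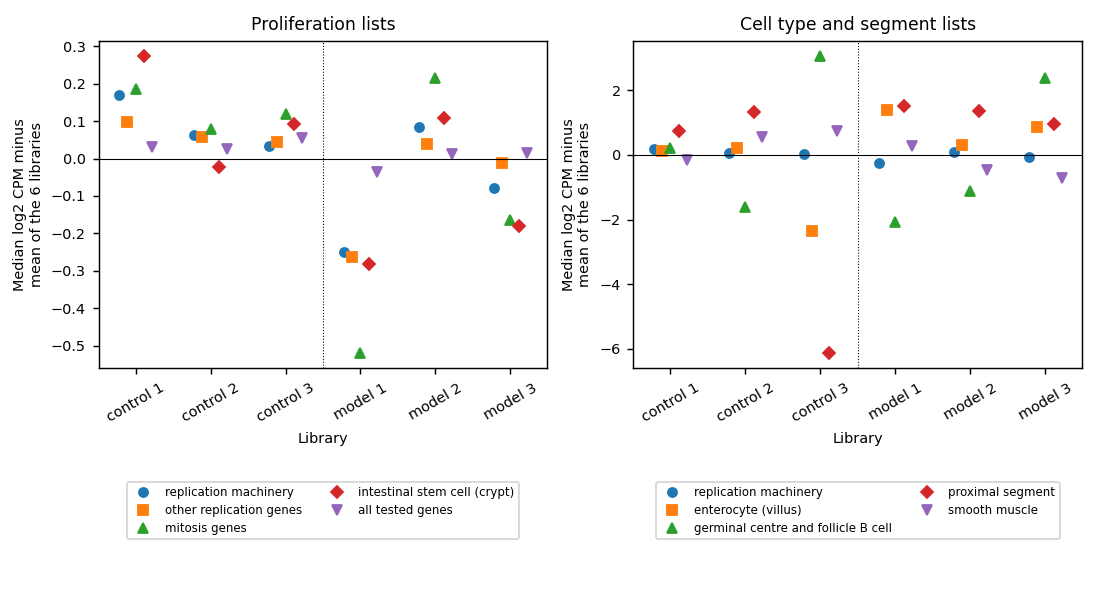
Median over the genes of a list of log2 CPM minus the mean of the 6 libraries, for each library, with proliferation lists on the left and cell type and segment lists on the right (the axes differ in scale). Replication and mitosis genes are lowest in model 1 (-0.25 and -0.52). Control 3 stands apart in proximal segment markers (-6.14) and is at 0.033 in replication genes.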

How the data were processed

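Poly-A selected RNA of frozen small intestine was sequenced, per the labels' protocols. The submitters' processing notes name featureCounts, STAR, Trimmomatic and FastQC, with the build GRCm39. Tool versions, gene annotation and strand setting were not given in the sources used here. Raw counts in whole numbers for each gene were deposited, with 0 columns unmatched to a sample. Genes whose exons overlap others are therefore uncertain.

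From these counts, genes were kept by filterByExpr (15904 of 33017), scaled by TMM and tested with edgeR 4.0.16 (robust quasi-likelihood F test, R 4.3.3) with group as the only term and Benjamini-Hochberg adjustment over all tested genes, at 0.05. The SE is the size of the log2 fold change over the root of the F statistic. Deviations use log2 CPM with a prior count of 2. DESeq2 1.42.0 and limma 3.58.1 (voom) were alternatives, with other scalings, filters, a replicate block and libraries left out. In a single draw of counts simulated with the median per-gene dispersion of 0.11 (model against control, 15774 genes), a small part of the genes was changed. Of these, chosen above a minimum mean count, edgeR called 9% of those changed 2-fold and 88% of those changed 4-fold. The dispersion was that of all tested genes and not of the replication genes, so these shares do not give the power for the set. Transcript lengths (longest per symbol) and exon overlaps came from GENCODE M21 on GRCm38, with lengths for 96.6% of tested genes. No library was treated as a duplicate of another (chi-square per degree of freedom at least 111 for each pair within a group).

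The genes and lists were chosen with earlier results of these data known. Values in each library are printed for Mcm2 to Mcm7, for the gene with the highest mean CPM and the gene with the smallest p of each role, for genes whose groups did not overlap, and for 9 fixed genes.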

Additional observations from a re-analysis of the deposited data

How the results depend on the processing

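No replication gene passed in any of the 18 alternative fits, with 28 to 41 genes below 0. This number moved with the share of all tested genes below 0: it was 28 with RLE scaling, beside 48.4%, and 41 with library totals alone, beside 72%. Numbers below 0 that are printed without such a share are not read as a result about the set. The median log2 fold change was between -0.30 and -0.048 when 1 library was left out, and -0.35 with scaling by library totals alone. The number of genes whose groups did not overlap, beside the share of all tested genes under the same setting, was 4 (11.3%) with RLE scaling, which lost E2f1, 11 (11.4%) with upper-quartile scaling and 12 (12.8%) with library totals alone, which lost Cdt1. It was 6 to 14 with 1 library left out: 6 (21.2%) without control 1, 10 (27.2%) without control 2, 9 (16.4%) without control 3, 7 (19.2%) without model 1, 14 (22.8%) without model 2 and 8 (20.3%) without model 3. It was 13 (26.9%) without control 3 and model 3, and 14 (33.8%) without control 3 and model 1, both pairs chosen after the data were seen. Fewer libraries overlap less often by construction. Of 22 genes with values in each library, 10 kept their sign in every fit that tested them: Ccne2, Cdc45, Cdt1, E2f1, Mcm7, Prim2, Rfc1, Rrm1, Rrm2 and Uhrf1. The other 12 turned in at least 1 fit. Mcm6 was at -0.072 with upper-quartile scaling, -0.19 with library totals alone, -0.027 with a filter of 5 CPM and -0.082 without control 3 and model 1. With library totals alone Mcm10 was at -0.018, Cdc6 at -0.071 and Gmnn at -0.060. Without control 3 and model 3 Mcm10 was at -0.12 and Cdc6 at -0.10. Without control 3 and model 1 Mcm2 was at 0.061, Mcm4 at 0.061, Mcm5 at 0.012, Pcna at -0.17, Dnmt1 at 0.017, Gmnn at -0.37 and Ccne1 at 0.0098. With 1 library left out the ranges were -0.42 to 0.0058 for Ccne1, -0.17 to 0.38 for Cdc6, -0.15 to 0.37 for Gmnn, -0.075 to 0.31 for Mcm10, -0.36 to 0.036 for Mcm2, -0.44 to 0.012 for Mcm3, -0.033 to 0.063 for Mcm6, -0.034 to 0.53 for Pcna and -0.18 to 0.00062 for Pold3. Causes were not tested.

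The ratio of the highest to the lowest MCM subunit per length, taken within each control library and then averaged, was 1.87 with the longest and 3.28 with the median transcript. The share of replication genes with E2F letters was 19.4% in the 150 bases before the start, beside 1.19% of all genes.

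Replicate numbers are shared by the groups but did not pair the libraries: correlations of same-numbered libraries' deviations from their group means were -0.15, -0.27 and 0.31, and control 2 was most like model 1 (0.48). With the replicate number as a block, 0 replication genes were called, 30 were below 0 and the median was -0.21.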

Other observations

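Among the other replication and S-phase control genes, 6 had groups that did not overlap, beside 11.1% of all tested genes, and they are named after their values were seen. None passed edgeR's test (smallest adjusted p = 0.851). Nasp, a histone chaperone, measured 48.9, 51.0 and 48.4 CPM in the controls, against 41.7, 43.1 and 41.2 CPM in the model libraries. Clspn, the checkpoint mediator claspin, measured 19.3, 12.6 and 13.3 CPM in the controls, against 4.64, 12.5 and 11.2 CPM in the model libraries, so that only model 1 lay far from the controls. Cdk2, the kinase bound by the E cyclins, had 19.3, 20.02 and 21.0 CPM in the controls, against 17.2, 18.6 and 17.1 CPM in the model libraries. E2f8, a repressor of the E2F family, and Mtbp, an initiation factor, were also lower in each model library, with log2 fold changes of -0.48 (SE 0.27) and -0.25 (SE 0.21). Mcmbp was the only one of the 6 that was higher (log2 fold change 0.14, SE 0.17).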
